A study of Caenorhabditis elegans with 2 samples.

Results

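The regions described here are ChIP-seq calls whose summit, the position of highest signal in a call, lay in the coding sequence (CDS) of a protein-coding gene on an autosome. They were taken from the authors' list of relaxed calls on both replicates pooled, in the ce11 build. Each summit also lay more than 1000 bp from every protein-coding transcription start site (TSS) and more than 200 bp from every tRNA, snoRNA and snRNA gene. Of 30000 pooled calls, 3441 met this rule, or 11.5%. They are called coding exon calls below. Coding exon calls made up 11.1% of the replicate 1 list (2474 of 22211) and 11.6% of the replicate 2 list (3205 of 27642).

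The study recovered tagged F10B5.3 from whole Caenorhabditis elegans hermaphrodites. F10B5.3, also named btbz-2, is annotated as a BTB domain-containing protein. The single group was strain OP529, which carries the unc-119(tm4063) allele on chromosome III and the transgene wgIs529. Per the labels, the transgene stably expresses F10B5.3 with a GFP-FLAG tag at its C terminus, and an anti-GFP antibody was used for the pull-down. The worms were L4 larvae, taken 48 h after L1 larvae starved after bleaching had been synchronized. There were 2 biological replicates and no other strain, stage or treatment, so all values describe this one condition, and the calls of one list are not replicates of it. Whole worms mix all tissues, and peak lists hold no expression values with which to check cell types.

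Sequence-specific DNA-binding proteins are usually found near promoters and enhancers, most of which in worms lie close to transcription start sites. Coding exons also hold regulatory sites in some genes, but their base composition is constrained by the protein they encode, and they are richer in G and C than worm introns and intergenic DNA. A relaxed call list deliberately holds weak calls together with strong ones, so that the irreproducible discovery rate (IDR) method can find the rank at which replicates stop agreeing. The thresholded set that IDR returns is the authors' list of reproducible peaks, here called IDR peaks. BTB domains pair proteins with each other and with partner complexes.

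The strongest coding exon calls are shown first by their sequence, since the strength of a call and its uniqueness in the genome both bear on the values that follow. Sequences were read from the RefSeq WBcel235 assembly, which is the ce11 build, on the strand that codes for the protein, and are written 5′ to 3′. Below are the highest 5 coding exon calls on chromosomes II to V that held no repeated word, a stretch of 31 bases found elsewhere in the genome. Capitals mark the 21 bases centred on the summit. The F25B5.5 stretch ends at its stop codon. The others span 101 bases. The rpt-2 summit lay 30 bp from an edge of its coding exon, so that stretch also holds bases outside the exon.
F25B5.5 (III:5943916-5943985, minus strand): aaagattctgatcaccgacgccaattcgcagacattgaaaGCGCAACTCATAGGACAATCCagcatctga
clec-264 (V:20848005-20848105, minus strand): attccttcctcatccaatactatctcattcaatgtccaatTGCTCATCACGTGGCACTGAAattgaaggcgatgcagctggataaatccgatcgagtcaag
mttu-1 (IV:11295349-11295449, minus strand): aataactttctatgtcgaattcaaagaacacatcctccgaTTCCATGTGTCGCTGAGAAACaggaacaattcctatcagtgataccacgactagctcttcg
rpt-2 (V:6016451-6016551, minus strand): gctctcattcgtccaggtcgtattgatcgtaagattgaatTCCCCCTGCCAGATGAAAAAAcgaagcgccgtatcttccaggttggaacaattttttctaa
lgc-31 (V:15513533-15513633, minus strand): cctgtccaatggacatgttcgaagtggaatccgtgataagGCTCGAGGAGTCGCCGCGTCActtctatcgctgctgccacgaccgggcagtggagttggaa

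The clec-264 summit held the palindrome CACGTG within its capitals, and the lgc-31 stretch had a GC content of 57.4%, against 43.6% in clec-264 and rpt-2. The highest 2 calls on the same chromosomes with repeated bases lay in asp-6, which encodes an aspartyl protease, and grl-25. In these lines capitals mark the repeated bases, so reads from them may belong to another copy. The asp-6 call had a signal of 69.8 in the pool and 31.7 in replicate 2, with no replicate 1 summit within 100 bp. The grl-25 call had 65.3 in the pool, 22.1 in replicate 1 and 42.3 in replicate 2.
asp-6 (V:8267689-8267789, minus strand): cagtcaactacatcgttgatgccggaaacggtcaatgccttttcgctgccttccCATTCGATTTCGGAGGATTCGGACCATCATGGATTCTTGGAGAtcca
grl-25 (III:8964725-8964825, plus strand): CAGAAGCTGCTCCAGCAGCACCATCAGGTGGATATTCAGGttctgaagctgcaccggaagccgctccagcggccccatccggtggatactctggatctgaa

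Of the 3441 coding exon calls, 9 were IDR peaks. That share was 0.262% (0.138 to 0.496%, 95% Wilson interval, counting error only), against 2.87% of all pooled calls (862 of 30000; 2.69 to 3.07%). Calls away from promoters in introns of autosomal genes were IDR peaks in 0.849% (37 of 4359), and intergenic calls in 1.82% (69 of 3781). Coding exon calls on the X chromosome, at 0.295% (2 of 679), had a share whose interval overlapped the autosomal one. Among autosomal calls within 1000 bp of a TSS the share was 3.53% (426 of 12056). IDR peaks were therefore less frequent among coding exon calls than in each of the 3 autosomal classes named here, by more than the counting intervals. Taken from each replicate alone, the 862 highest calls held 8 coding exon calls in replicate 1, or 0.323% of its coding exon calls against 3.88% of all its calls. They held 18 in replicate 2, or 0.562% against 3.12%. With start sites more than 2000 bp away, 1695 coding exon calls were left, and the share of IDR peaks was 0.118%.

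The signal of the typical coding exon call was close to that of the typical call, and the difference lay in the upper tail. Signal is the authors' own value, of unstated scale, and is used only within one list. Its median was 27.04 in coding exon calls (quartiles 22.1 and 34.4), against 27.63 in all calls (22.3 and 36.9), 26.00 in intron calls and 26.67 in intergenic calls. Relative to the median of all calls, coding exon calls stood at 97.9% in the pool, 97.5% in replicate 1 and 97.4% in replicate 2. The 99th percentile was 67.7 in coding exon calls, against 147 in all calls, 80.7 in intron calls and 101 in intergenic calls. The highest coding exon call had a signal of 147. The lowest IDR peak of the whole set had 86.5, and no coding exon call above that value lay outside the IDR set. Nearly all coding exon calls (3440) were 450 bp wide, and the exception was a 154 bp call in mttu-1. The authors' −log10 q-value had a median of 0.120 in coding exon calls and reached its ceiling of 3.24 in the 9 IDR peaks.

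Coding exon calls were rare at the top of the pooled list and reached a plateau further down. They were 1.04% of the 862 highest calls, 7.48% of ranks 863 to 3000, 10.8% of ranks 3001 to 6000 and 12.6% of ranks 6001 to 12000. In the 3 bins below rank 12000 their share lay between 11.7% and 12.6%. The 160 coding exon calls of ranks 863 to 3000 had signals between 51.2 and 82.8. The 9 coding exon calls among the 862 highest were the 9 IDR peaks. Other nuclear calls numbered 830 both in that bin and in the IDR set. The low share at the top ranks, the low share of IDR peaks and the shorter upper tail of signal are therefore not separate results.

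**Figure D1:**
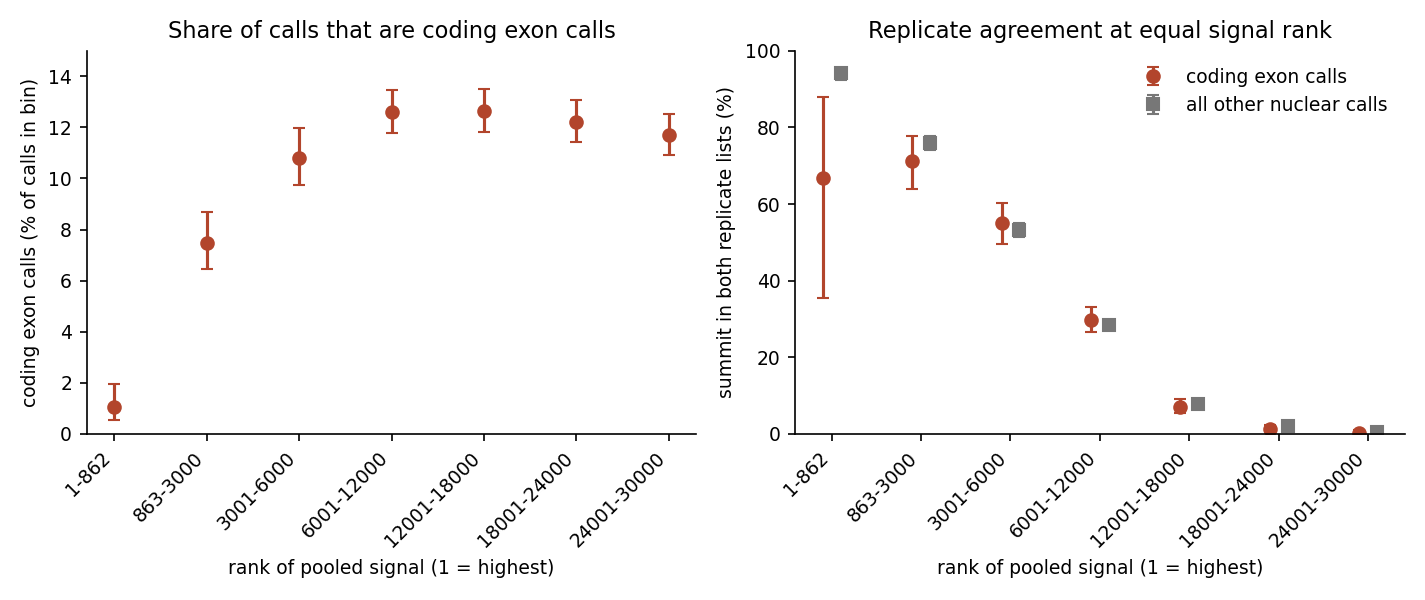
Left, share of pooled calls that were coding exon calls (%) in 7 bins of signal rank, 1 being the highest. Right, share of calls (%) with a summit within 100 bp in both replicate lists, for coding exon calls and for all other nuclear calls in the same bins. Bars are 95% Wilson intervals. The coding share is 1.04% in the first bin and 11.7 to 12.6% from rank 6001 on, and the intervals on the right overlap in every bin from rank 863 on.

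Per length of sequence, the coding exons held more calls and fewer IDR peaks than introns and intergenic DNA. The sequence open to the rule, here called eligible, was 10.6 Mb of autosomal CDS. It held 326 calls per Mb in the pool, 234 in replicate 1 and 304 in replicate 2. Eligible introns (16.3 Mb) held 267, 181 and 240 calls per Mb in the same lists, and eligible intergenic DNA (18.9 Mb) 201, 146 and 188. The order of the 3 classes was thus the same in the pool and in both replicates. For IDR peaks it was the opposite, with 0.853 per Mb in coding exons, 2.27 in introns and 3.66 in intergenic DNA. Repeated sequence differed between the classes as well. It touched 2.47% of coding exon calls (85), against 8.54% of all calls, 13.3% of intron calls and 13.1% of intergenic calls. Among eligible bases it touched 6.56% in coding sequence, 24.3% in introns and 25.8% in intergenic DNA. The mean GC content around eligible bases was 41.4%, 32.9% and 34.4% in the same order. The parts of mappability and GC content in these densities were not tested.

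Coding exon calls were spread over all 5 autosomes. Their density was 395 per Mb on chromosome III (785 calls), between 334 and 340 per Mb on I, II and IV, and 243 per Mb on V (600 calls). Chromosome III was the highest and V the lowest in both replicate lists too, with 274 against 189 per Mb in replicate 1 and 367 against 221 in replicate 2. IDR peaks numbered 3 each on III and V and 1 each on I, II and IV.

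A summit within 100 bp was found in both replicate lists for 586 coding exon calls, or 17.03% (15.8 to 18.3%), against 21.2% of all calls. The share depended on the distance allowed, at 9.503% within 50 bp and 27.1% within 200 bp. Replicate 1 had one for 1369 (39.8%, against 43.5% of all calls) and replicate 2 for 1899 (55.2%, against 56.2%). Neither list had one for 759 (22.1%). The pool contains the reads of both replicates, so these shares are not independent of it. Set directly against each other, 24.3% of the coding exon calls of replicate 1 had a replicate 2 summit within 100 bp, against 28.4% of all replicate 1 calls. In the other direction, 18.4% of the coding exon calls of replicate 2 had a replicate 1 summit, against 22.9% of all replicate 2 calls. Of the eligible coding bases, 4.70% lay that close to a replicate 1 summit and 6.14% to a replicate 2 summit. Coding exon calls were thus matched between the replicates more often than coding bases at large, and less often than calls at large. Among calls away from promoters they lay between introns and intergenic DNA. Both replicate lists had a summit within 100 bp for 15.99% of intron calls and 18.6% of intergenic calls. Set directly against each other, 22.2% of intron and 25.3% of intergenic calls of replicate 1 were matched. In replicate 2 these shares were 17.2% and 19.8%.

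Among the 862 highest calls, 66.7% of the 9 coding exon calls (35.4 to 87.9%) were found in both replicate lists, against 94.2% of all other nuclear calls (92.4 to 95.6%), and these intervals do not overlap. The gap rests on 3 calls, in rpt-2, F25B5.3 and F07A11.5, that had no replicate 1 summit within 100 bp. The nearest one lay within 200 bp in rpt-2 and F25B5.3 and 299 bp away in F07A11.5. Shares within 200 bp were not computed for this bin, so the gap may depend on the distance allowed. From rank 863 to rank 12000 the shares lay closer together. In ranks 863 to 3000, 71.2% of coding exon calls (63.8 to 77.7%) were found in both replicate lists, against 76.0% of all other nuclear calls (74.1 to 77.9%). In ranks 3001 to 6000 the shares were 54.9% (49.5 to 60.3%) and 53.2% (51.3 to 55.1%), and in ranks 6001 to 12000 they were 29.7% (26.5 to 33.02%) and 28.4% (27.2 to 29.7%). The intervals overlap in each of the bins from rank 863 on. Below rank 24000, 0.285% of coding exon calls (0.078 to 1.03%) and 0.510% of the others (0.350 to 0.740%) were found in both.

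The 2 replicates ranked the matched coding exon calls with little likeness. Over the 586 calls found in both lists, Spearman's rho between the replicate signals was 0.190 and Pearson's r on log10 values was 0.277. Over the other nuclear calls found in both, rho was 0.518 and r was 0.725. Away from promoters, rho was 0.360 in intron calls, 0.423 in intergenic calls and 0.045 over 117 X coding exon calls. In the same 3 classes r was 0.552, 0.577 and 0.529. By rho, the X coding exon calls thus ranked with even less likeness. Their r was higher than that of the autosomal coding exon calls. The highest X coding exon call had 772.5 in the pool, against a 99th percentile of 64.8 in that class. An extreme call can raise r, and r without it was not computed. All these values are descriptions over calls that share a caller, a control and a genome, and the other calls span a wider range of signal.

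**Figure D2:**
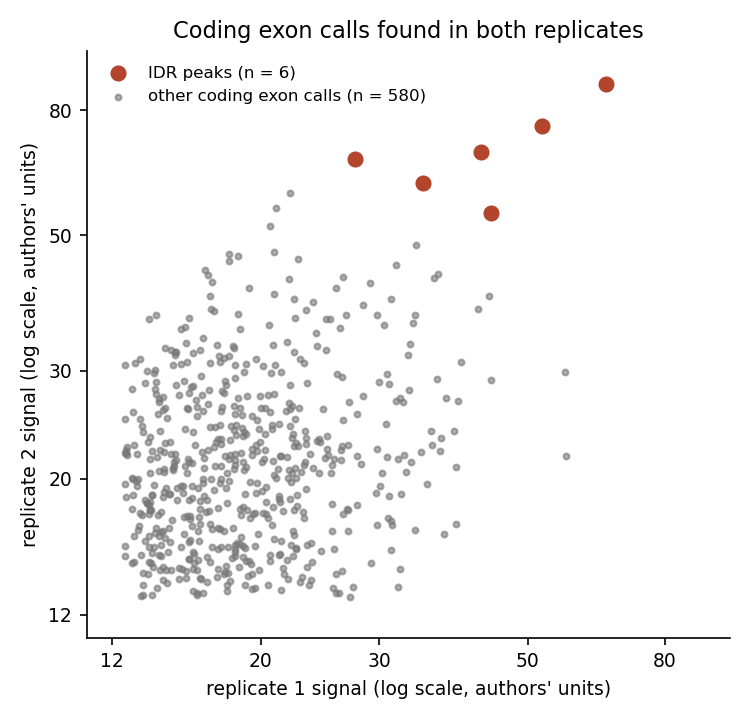
Signal in replicate 2 against signal in replicate 1 (log scales, authors' units) for the 586 coding exon calls with a summit within 100 bp in both lists. The 6 IDR peaks among them lie in the upper right, and the other coding exon calls form a broad cloud.

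The 9 IDR peaks lay in 9 genes. The highest was in F25B5.5 (WBGene00017776), at III:5943710-5944159 with the summit at 5943935. Its signal was 147 in the pool, 65.4 in replicate 1 and 88.4 in replicate 2. The summit lay in the last of 8 coding exons, and the annotated end of ubq-1, a polyubiquitin gene on the opposite strand, lay inside the call. The second was in clec-264 (WBGene00009291), a gene of the C-type lectin family, at V:20847830-20848279, with 127 in the pool, 52.5 in replicate 1 and 75.3 in replicate 2. Their summits lay 2189 and 1897 bp from the nearest start site.

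mttu-1 (WBGene00007114) encodes an enzyme that thiolates mitochondrial tRNA. Its narrow call at IV:11295284-11295437 had signals of 105 in the pool, 42.6 in replicate 1 and 68.4 in replicate 2, with an antisense RNA gene, B0035.20, annotated within 200 bp of the summit. rpt-2 (WBGene00004502) encodes an ATPase of the proteasome cap. Its call at V:6016276-6016725 had 97.8 in the pool and 74.3 in replicate 2, and the nearest replicate 1 summit, with 36.98, was more than 100 bp away. A snoRNA gene, F29G9.19, lay 470 bp from that summit. lgc-31 (WBGene00008997) belongs to the ligand-gated ion channels, and its call at V:15513358-15513807 had 95.2 in the pool, 44.1 in replicate 1 and 54.3 in replicate 2. Of the 3 genes, rpt-2 and lgc-31 are members of gene lists described further on.

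dos-3 (WBGene00019331) encodes a co-ligand of Notch receptors. Its call at III:835732-836181 had 94.8 in the pool, 27.6 in replicate 1 and 66.5 in replicate 2. F25B5.3 (WBGene00017775) held a call at III:5952927-5953376, 9217 bp from that of F25B5.5, with 93.0 in the pool, 60.8 in replicate 2 and 41.6 at a replicate 1 summit 154 bp away. pyk-1 (WBGene00009126) encodes pyruvate kinase, the last enzyme of glycolysis. Its call at I:9176785-9177234 had 91.9 in the pool, 34.9 in replicate 1 and 60.7 in replicate 2, and a snoRNA gene, F25H5.9, lay 557 bp from its summit. The last was in F07A11.5 (WBGene00008548) at II:11614100-11614549, with 89.03 in the pool, 78.3 in replicate 2 and 23.5 at a replicate 1 summit 299 bp away. All 9 peaks had a replicate 2 summit within 100 bp, and 3 of them (rpt-2, F25B5.3 and F07A11.5) had no replicate 1 summit within that distance.

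The 6 highest coding exon calls outside the IDR set had signals between 78.3 and 82.8. They lay in lit-1, the Nemo-like kinase of the Wnt pathway (82.8), in dos-3 again, 208 bp from its IDR peak (81.6), in rol-1 (79.2), in nhr-88, a nuclear hormone receptor (78.4), in lec-1, a galectin (78.3), and in twk-13, a potassium channel (78.3). All 6 had a summit within 100 bp in both replicate lists. lec-1 had 57.0 in replicate 1 and 21.8 in replicate 2. twk-13 had 56.9 in replicate 1 and 29.9 in replicate 2, and the second dos-3 call had 22.1 in replicate 1 and 58.5 in replicate 2.

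The IDR peaks sat late in their coding sequences. Their summits lay between 74.7% and 99.8% of the way from the start codon to the stop codon, with a median of 93.4%, and 4 of 9 were in the last coding exon. The median position was 65.6% over all coding exon calls and 62.99% over the eligible coding bases. Of all 3441 coding exon calls, 680 were in the last coding exon. The distance of the IDR peaks to the nearest annotated 3′ end of a protein-coding transcript was 66 to 728 bp, and within 500 bp in 8 of 9. Of the eligible coding bases 21.1% lay that close, and of all coding exon calls 23.9%. Among the 862 highest calls of each replicate list, 5 of 8 coding exon calls in replicate 1 and 14 of 18 in replicate 2 were within 500 bp, against 24.7% and 25.3% of all coding exon calls in those lists. This measure was chosen after the positions had been seen, and with 9 peaks it is given as a description.

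Over all coding exon calls the density was also highest near 3′ ends, by a smaller margin. It was 369 per Mb within 250 bp of a 3′ end and 371 per Mb from 251 to 500 bp. It was 307 per Mb from 501 to 1000 bp, 296 from 1001 to 2000 bp and 330 beyond 2000 bp. Of the coding exon calls in these 5 bins, 7.88%, 8.93%, 5.06%, 3.95% and 3.22% were among the 3000 highest pooled calls. No IDR peak was among the 810 calls at 1001 to 2000 bp or the 1275 beyond 2000 bp, which allows shares of up to 0.370% and 0.235%. The mean GC content around eligible coding bases was 40.1% within 250 bp of a 3′ end and 42.4% beyond 2000 bp. If each bin had the call density of its GC classes, the bin within 250 bp would hold 349 calls and the bin from 251 to 500 bp 352. They held 419 and 403. The part of GC content in the density near 3′ ends was not tested.

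**Figure D3:**
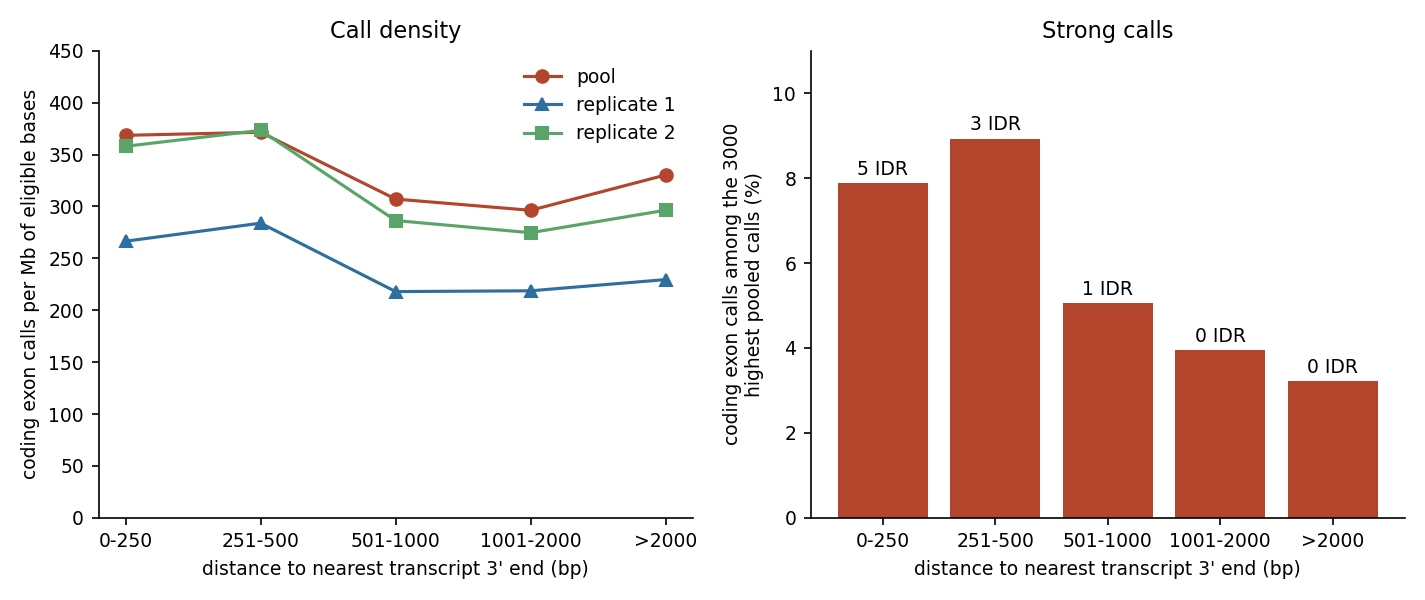
Coding exon calls by the distance (bp) of the summit to the nearest annotated 3′ end of a protein-coding transcript. Left, calls per Mb of eligible coding bases in the pool and in each replicate; right, share (%) of coding exon calls that were among the 3000 highest pooled calls, with the number of IDR peaks above each bar. Densities are highest in the 2 bins within 500 bp in all 3 lists, and 8 of the 9 IDR peaks are in those bins.

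The last part of the coding sequence held the highest density. In 5 equal parts of the coding sequence, the density was 324, 332, 289, 310 and 381 calls per Mb from start to stop codon, and the IDR peaks numbered 0, 0, 0, 2 and 7. The exon at the summit had a median length of 335 bp, against 308 bp over eligible bases. The median call had 74.4% of its width in coding sequence, so neighbouring intron or untranslated sequence was part of most calls. In 265 calls the summit base was intron or untranslated sequence in another transcript of a protein-coding gene. Calls lay 1747 on plus-strand genes and 1694 on minus-strand genes. Another pooled call overlapped 1068 of them (31.0%).

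Beyond the limit to start sites the median signal differed little with distance, at 27.2 from 1001 to 1500 bp and 26.8 beyond 4000 bp. The 2 coding exon calls nearest to the 1000 bp limit lay 1002 bp from a start site, in elks-1 (49.8) and zig-7 (33.99). The 2 nearest calls outside it, at 1000 bp, were in cgt-3 (46.2) and srx-93 (34.9). Among calls in coding sequence, the share of IDR peaks was 1.31% within 250 bp of a start site and 0.343% from 251 to 500 bp. It was 0.280% from 501 to 1000 bp, 0.381% from 1001 to 1500 bp, 0.431% from 1501 to 2000 bp and 0.170% from 2001 to 4000 bp. There was no IDR peak among the 521 calls beyond 4000 bp, which allows a share of up to 0.576%.

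Coding exon calls were GC-rich, also for coding sequence. The GC content of the 101 bases around the summit had a median of 45.5% (quartiles 39.6 and 50.5%), against 41.6% (36.6 and 45.5%) around the eligible coding bases. It was 34.7% at non-coding calls away from promoters and 37.6% at all calls. Density was 246 calls per Mb of coding bases below 30% GC, 190 at 30 to 35% and 192 at 35 to 40%. From there it climbed through 268 at 40 to 45%, 422 at 45 to 50% and 671 at 50 to 55% to 1322 at 55% and above. In the highest class it was 914 in replicate 1 and 1090 in replicate 2, so the gradient was present in each list.

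**Figure D4:**
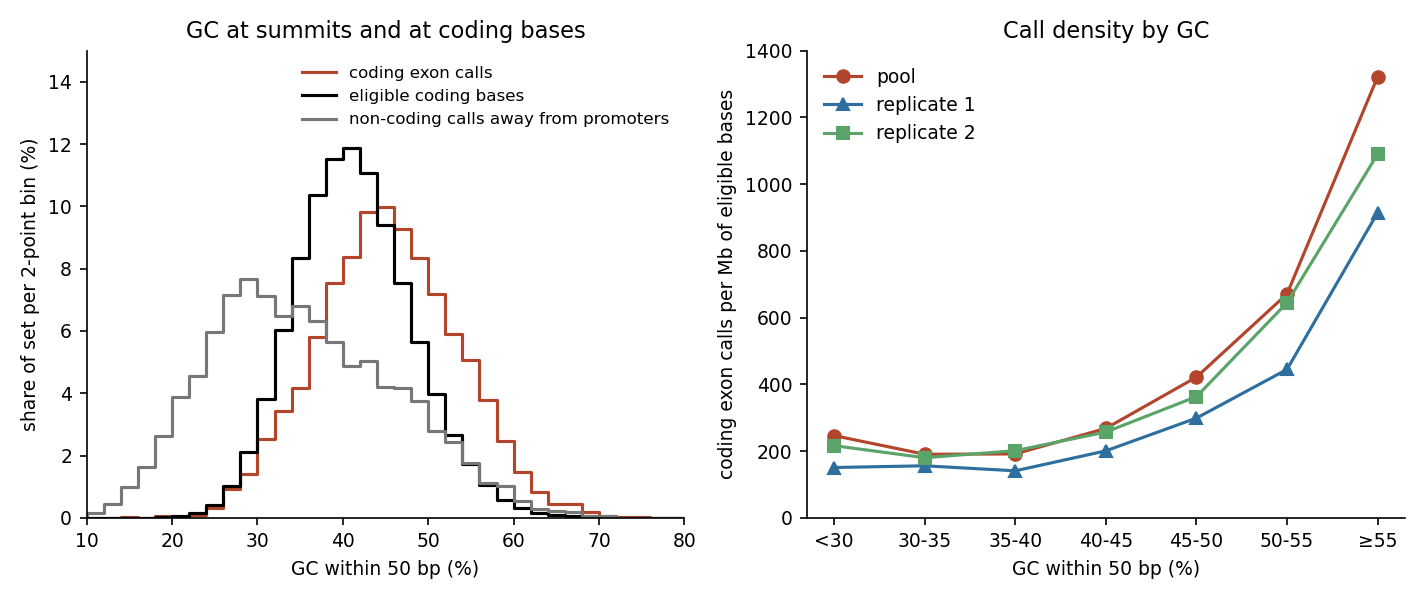
Left, distribution of GC content within 50 bp (%) for coding exon calls, for eligible coding bases and for non-coding calls away from promoters, as the share of each set in bins of 2 percentage points. Right, coding exon calls per Mb of eligible coding bases by GC class in the pool and in each replicate. The calls are shifted to higher GC than the coding bases, and density climbs from 45% GC upward to 1322 per Mb in the pool.

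Within a GC class, coding exon calls still held a smaller share of IDR peaks than the non-coding calls away from promoters. At 40 to 45% GC the shares were 0.380% in coding exon calls and 1.83% in non-coding calls. At 45 to 50% they were 0.254% and 2.31%, and at 55% and above 0.237% and 6.72%. At 50 to 55% there was no IDR peak among 537 coding exon calls, which allows up to 0.559%, against 4.62% of the non-coding calls. Below 40% GC the intervals of the 2 sets overlapped. The IDR share of non-coding calls increased with GC in every step from one class to the next. From the lowest to the highest class, coding exon calls held 0, 0, 3, 3, 2, 0 and 1 IDR peaks, too few to judge a trend. Signal itself followed GC weakly in coding exon calls, with a Spearman's rho of 0.114 over 3441 calls, against 0.191 over all other nuclear calls.

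Short sequence words within 50 bp of the summit differed between coding exon calls and non-coding calls away from promoters, in both directions. All words were searched on both strands, none contains another, and the shares are not corrected for base composition. A run of 6 T (TTTTTT) was present at 12.2% of coding exon calls, against 44.9% of non-coding calls and 37.7% of all other nuclear calls. TATAAA was present at 5.46%, against 16.04% and 14.05%, and GAGAGA at 5.70%, against 8.90% and 8.34%. More frequent at coding exon calls were CACGTG (4.45%, against 1.83% and 1.94%), CTCCTC (8.22%, against 4.41% and 5.29%) and CCACCACCA (1.34%, against 0.292% and 0.426%). Of the 9 IDR peaks, CACGTG was found at 1, TATAAA at 2 and GAGAGA at 0. A match is a description of the sequence and not a binding site.

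The coding exon calls fell in 2349 of the 11475 genes that had eligible coding sequence, or 20.5%. A single call was found in 1685 genes, 2 calls in 439 and at least 3 in 225, and 47 genes with 5 or more held 304 calls. Genes with a call had a median of 1181 bp of eligible sequence, against 492 bp in genes without one. Over all genes there were 0.326 calls per kb. That density was similar across gene lengths, between 0.295 and 0.344 per kb in 5 length classes. Between the replicates, the number of coding exon calls per gene had a Spearman's rho of 0.390.

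The genes with most calls were long, and several encode structural proteins. vab-10, which encodes a spectraplakin that links cytoskeleton and epidermal attachments, held 14 calls in 20.4 kb of eligible sequence. The replicate lists held 10 and 12 there, and 1 of the 14 calls was found in both. let-805, the gene of myotactin, a component of the attachment of epidermis to muscle, held 12 calls, with 4 in replicate 1 and 14 in replicate 2. emb-9, a type IV collagen chain of basement membranes, held 10 in the pool, 6 in replicate 1 and 8 in replicate 2. Of the 10, 2 were found in both. The pooled density was 2.02 per kb, against 0.326 per kb over all genes, without regard to GC content. Signals of the emb-9 calls lay between 20.5 and 51.2 with a median of 27.6, near the median of all calls.

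set-16, which encodes a methyltransferase of histone H3 lysine residues, also held 10 calls, with 6 in replicate 1 and 7 in replicate 2, and 4 of the 10 were found in both. clec-78 and T04F3.1 held 9 each. The highest signal in the 6 genes was 52.4, in vab-10, and none of these genes held an IDR peak among its coding exon calls. Many calls in a gene thus went with ordinary signal.

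Calls per kb of eligible sequence differed between gene lists by over an order of magnitude, as the plot by gene list shows. The lists were chosen with results of these data known, so their densities are descriptions. Cuticle collagens, the GC-rich genes of the worm's outer coat, had 1.08 calls per kb in the pool, 0.837 in replicate 1 and 0.872 in replicate 2. Their 31 calls compare with 22.2 if coding sequence of their GC content had the density of all genes. The highest were in col-113 (72.8) and col-40 (64.9). The list of extracellular matrix and cell attachment genes holds emb-9 and let-805, and also vab-10, whose product lies inside the cell. It had 0.609 calls per kb and 67 calls, against 44.5 given by GC. It had 0.337 per kb in replicate 1 and 0.509 in replicate 2. The 3 genes emb-9, let-805 and vab-10 held 36 of its 67 calls. Without them the list had 0.433 calls per kb in the pool, 0.237 in replicate 1 and 0.307 in replicate 2, where all eligible coding sequence had 234 and 304 calls per Mb. Its excess over all eligible coding sequence in the replicates thus rested on those genes. In the pool 31 calls were left, against 21.9 given by GC. The genes left out were chosen for their many calls, so the density had to be lower without them.

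**Figure D5:**
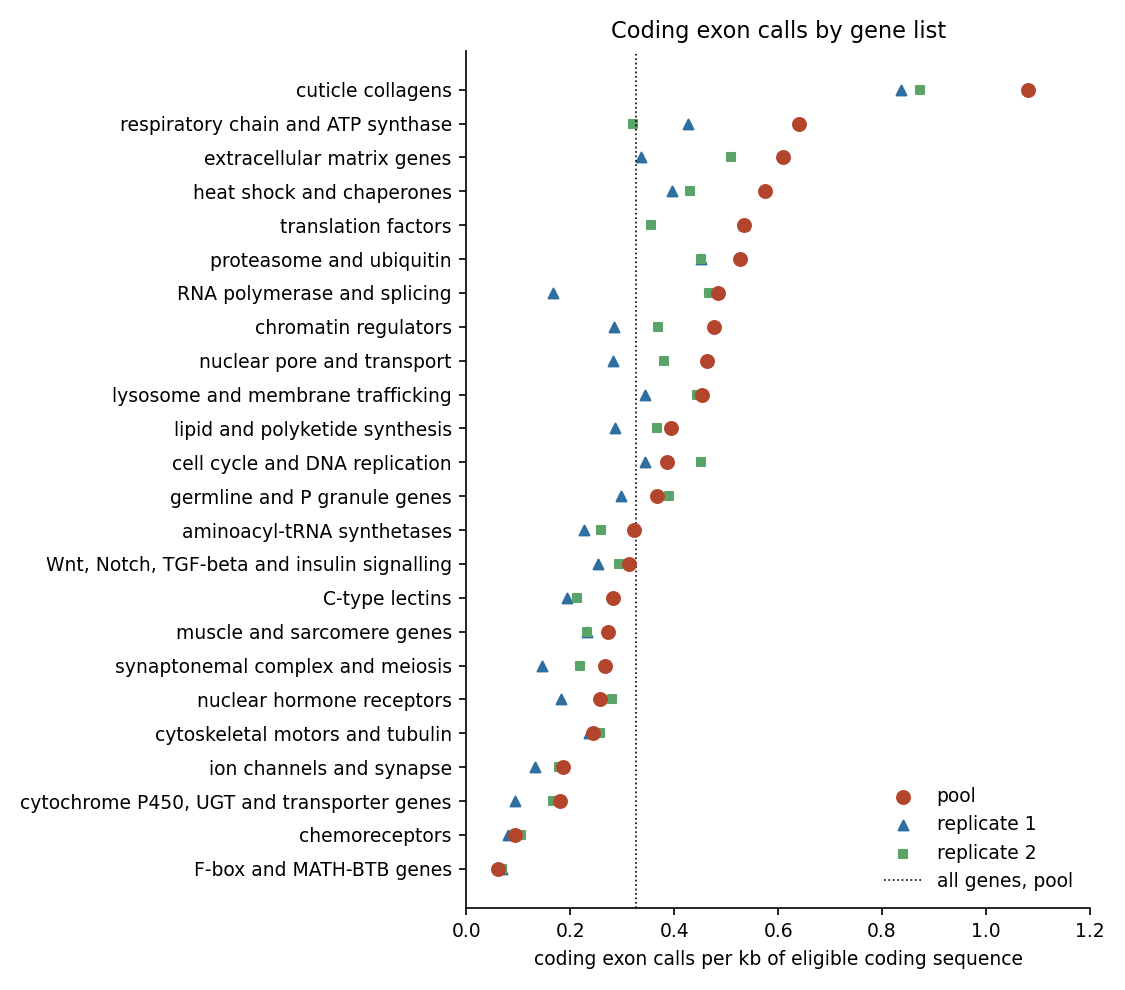
Coding exon calls per kb of eligible coding sequence for 24 gene lists, in the pool and in each replicate. The dotted line is the pooled density over all genes, 0.326 per kb. Cuticle collagens are highest at 1.08 and F-box and MATH-BTB genes lowest at 0.060 per kb in the pool.

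Proteasome and ubiquitin genes had 0.526 calls per kb and 35 calls, against 25.3 given by GC, among them the IDR peak of rpt-2 and a call of 59.5 in rpn-1, a subunit of the proteasome cap. Lysosome and membrane trafficking genes had 0.453 per kb and 50 calls, against 34.7, led by asp-6 (69.8), whose summit region is not unique, and apb-3 (69.8), an adaptin. Chromatin regulators had 0.477 per kb and 62 calls, against 51.3, led by hda-10, a histone deacetylase (67.6), and chd-7, a chromodomain helicase (58.2). Without set-16, chromatin regulators had 52 calls, against 46.0. These 3 lists each held more calls than their GC content gives.

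Heat shock and chaperone genes had 0.575 per kb, with hsp-1, an HSP70 chaperone, at 53.7 and cct-3, a chaperonin subunit, at 42.0. Respiratory chain and ATP synthase genes had 0.641 from only 6 calls, with nuo-5 at 60.4 and isp-1 at 27.2. Translation factors had 0.534 from 9 calls, with eef-2 at 41.2 and ifg-1 at 38.1. RNA polymerase and splicing genes had 0.484 in the pool but 0.167 in replicate 1 and 0.468 in replicate 2, with rpoa-1 (41.1) and rpoa-2 (38.4), subunits of RNA polymerase I. The replicates thus disagreed on whether this list lay above or below the overall density.

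Nuclear pore genes had 0.463 per kb (npp-16, 67.2, and npp-7, 50.1), lipid and polyketide synthesis genes 0.394 (fasn-1, fatty acid synthase, 48.6, and pod-2, acetyl-CoA carboxylase, 41.3), and cell cycle and replication genes 0.387 (rfc-3, a clamp loader subunit, 71.5, and cdk-14, 55.3). Germline and P granule genes had 0.366 (alg-2, 50.1, and alg-3, 47.1, both Argonautes), aminoacyl-tRNA synthetases 0.323 (cars-1, 46.1, and nars-1, 44.5), and the signalling list 0.312 (daf-38, 63.5, and lag-1, the nuclear effector of Notch, 57.4). The signalling list was drawn up for the Wnt, Notch, TGF-beta and insulin pathways by gene name. It takes in every gene named daf, among them daf-38, a pheromone receptor outside these pathways, and it does not hold lit-1 or dos-3. For these lists the number of calls beside the number given by GC ranged from 28 against 22.1 in nuclear pore genes to 32 against 33.8 in the signalling list. The single autosomal vitellogenin gene, vit-6, a yolk protein, held 4 calls with signals up to 44.8.

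Genes of sensory and variable families held few calls. Chemoreceptors, the large families of receptors of sensory neurons, had 0.094 calls per kb in the pool, 0.079 in replicate 1 and 0.106 in replicate 2. Of 882 chemoreceptor genes with eligible sequence 31 had a call, and the 32 calls compare with 81.5 given by GC. The highest were in srt-47 (48.6) and sru-21 (43.3). F-box and MATH-BTB genes had 0.060 per kb, with 7 calls against 28.5, and the highest were in bath-40 (40.7) and fbxa-155 (32.4). Repeated words covered 18.9% of the eligible sequence of F-box and MATH-BTB genes and 11.1% of that of chemoreceptors, against 6.56% over all eligible coding bases. They covered 11.4% in cuticle collagens and 10.3% in proteasome and ubiquitin genes, which held more calls than given by GC. In C-type lectins, which held fewer, they covered 10.9%. The part of repeated words in the low counts was not tested.

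Ion channel and synapse genes had 0.187 per kb and 45 calls, against 66.5, although the list held the IDR peak of lgc-31 and the twk-13 call. Cytochrome P450, UGT and transporter genes had 0.179 and 29 calls, against 44.96, led by cyp-31A3 (39.5) and ced-7 (37.6). Muscle and sarcomere genes had 0.273 and 53 calls, against 72.2, led by lev-11, tropomyosin (54.1), and dyb-1, dystrobrevin (48.9). In each of these 3 lists the pooled count was below the one given by GC.

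Nuclear hormone receptors had 0.257 per kb and 34 calls, against 36.2, with nhr-88 at 78.4 and nhr-20 at 54.8. C-type lectins had 0.282 and 29 calls, against 35.7, with the IDR peak of clec-264 and a call of 62.7 in clec-142. Without clec-78 they had 0.214 per kb and 20 calls, against 29.9. Motor and tubulin genes had 0.243 (dnc-4, 52.3, and osm-3, a kinesin of cilia, 45.2) and genes of meiosis 0.267 (scc-2, 31.5, and smc-4, 28.7). Histones, cytosolic ribosomal proteins and major sperm proteins are mostly short genes whose coding sequence lies near a start site. They had 3, 5 and 4 genes with eligible sequence and no call in the pool. In replicate 2, 2 calls lay in the 1.18 kb of eligible ribosomal protein sequence, or 1.69 per kb, and replicate 1 had none there.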

How the data were processed

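ChIP-seq calls came from 2 biological replicates of 1 group. Per the notes deposited beside them, each replicate and the pool were called against a control alignment, and the authors passed these lists to IDR. Aligner, caller and IDR threshold are not given in the sources used here. As deposited, signal is the caller's value per call, of unstated scale, and the authors' −log10 q-value was used only to describe calls. Read depth is unknown. The ce11 lists were used and the ce10 lists were not.

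Summits were placed on Ensembl release 115 gene models for WBcel235, whose chromosome lengths are those of ce11. Eligible bases are those at which a summit would meet the rule. GC content and words of 31 bases were read from the RefSeq genome in the 101 bases around each summit. The number of calls given by GC is the sum, over GC classes, of eligible bases times the density of all coding exon calls in that class. Shares have 95% Wilson intervals, counting error only; a count of 0 allows up to 3. No tests were run, because there is 1 group and calls are not replicates. Scripts were tested on simulated data and used Python 3.11.15, pandas 2.3.3, numpy 2.4.6, scipy 1.17.1 and statsmodels 0.14.6.

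The rule for named genes took all IDR peaks, the 6 highest other calls, the 6 genes with most calls, the 2 highest genes of each of 28 gene lists, and 2 calls on each side of the start site limit. For sequences it took the 5 highest unique calls and the 2 highest others on chromosomes II to V. Members, lists and 13 motifs were chosen with earlier results of these data known. Patterns that had caught srgp-1, cerk-1 and hop-1 in wrong lists were corrected after values were seen, and 1 list was dropped with them. Alternatives were other limits to start sites and small RNA genes, call midpoints in place of summits, and each replicate's own list. Further ones were other matching distances, and lists without repeated or overlapping calls.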

Additional observations from a re-analysis of the deposited data

How the results depend on the processing

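Of 67 values recomputed under other settings, 46 kept close to the value as reported and 21 moved. The 46 include those from call midpoints in place of summits, which returned the reported value of each result. Summits lay at the midpoints of the 450 bp calls, so that setting was no check. A value counted as moved when it shifted by more than the SD of the 2 replicate lists (for rho, left its counting interval), and a count when it changed by over 1.5 times. The 2 replicate lists had the same median GC content, so any shift in GC counted as moved. With start sites over 2000 bp away, 1695 calls in 1127 genes were left, 0.118% were IDR peaks and the median signal was 97.6% of that of all calls. With small RNA genes over 1000 bp away, these were 0.206% and 97.7%. The share was 0.0581% when only IDR peaks above the set's median rank were counted. In each replicate's own list, 0.243 to 0.312% of coding exon calls lay within 100 bp of an IDR summit. Among all calls of replicates 1 and 2 these shares were 3.74% and 3.04%. The IDR set was derived from both replicates, so these shares do not leave a replicate out. The replicate lists gave medians of 97.4 to 97.5% and a GC content of 44.6% in both. Of their coding exon calls, 18.4 to 24.3% were matched in the other list. The median was 97.7% for summits coding in every transcript, 97.6% without repeated words and 97.02% with 1 call kept per overlap. Calls matched in both replicates were 9.503% at 50 bp and 27.1% at 200 bp. GC was 44.6% with start sites over 500 bp away or coding in every transcript, and 42.5% within 150 bp. The rho between replicates stayed within its counting interval in all settings run (0.111 to 0.267). With the whole IDR set counted, the share of IDR peaks stayed below the 2.87% of all calls in the settings run on the pool. Leaving the genes with most calls out of their gene lists was chosen after seeing the data. Depth is unknown, 9 IDR peaks give wide intervals, and 2 replicates of 1 group allow no comparison of conditions. No paired analysis was possible because there was 1 group.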

Other observations

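Some coding exon calls lay within 200 bp of annotated RNA genes other than those the rule removed. They numbered 92, with 41 near piRNA genes, 36 near non-coding RNA genes, 9 near antisense RNA genes, 5 near pseudogenes and 2 near miRNA genes, and 1 call counted in more than a single class.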
